A study of Mus musculus with 4 samples.

Results

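The GIMAP genes encode the GTPases of the immunity-associated protein family, and all 8 mouse members named Gimap in the deposited expression table (Gimap1, Gimap3, Gimap4, Gimap5, Gimap6, Gimap7, Gimap8 and Gimap9) are described here, of 24421 genes listed. They were matched by gene symbol. The RNA came from FACS-sorted CD69+CD4+CD8+ (CD69+DP) thymocytes of C57BL/6 mice aged 6 weeks, the double-positive cells that have received a TCR signal. Both genotypes carried floxed alleles of the transcription factor genes Foxa1 and Foxa2 (Foxa1fl/flFoxa2fl/fl): 2 control samples had no CD4Cre transgene, and 2 Foxa1/2cKO samples (CoKO in the labels) carried CD4Cre, which deletes floxed sequence in T-lineage cells from around the double-positive stage onwards. Each sample was sorted from different mice, and the comparison asked what loss of both factors changes in cells undergoing positive selection. Foxa1 and Foxa2 were listed at 0 in all 4 samples, so the targeted genes could not check the genotypes.

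GIMAP proteins share a guanine nucleotide-binding AIG1 domain, sit on intracellular membranes or in the cytosol, and are made mainly by lymphocytes. They are known for setting the survival of T cells as these leave the double-positive stage and enter the periphery. The genes lie side by side in mammalian genomes, and in mouse all 8 members stood within a single stretch of chromosome 6.

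The cluster ran from base 48647186 to base 48770851 of chromosome 6 (GRCm38.p6, mm10), a span of 123666 bases, in the order Gimap8, Gimap9, Gimap4, Gimap6, Gimap7, Gimap1, Gimap5 and Gimap3. Gimap6 and Gimap3 were on the minus strand and the other 6 on the plus strand. The promoter windows of 5 members are shown because the results turn on these genes: Gimap4 and Gimap3 were the members with a lower mean in Foxa1/2cKO, Gimap9 and Gimap6 flank Gimap4 in the cluster and had a higher mean, and Gimap7 was the member whose groups did not overlap. Each window holds 250 bases before and 50 bases from the annotated start (RefSeq, GRCm38.p6), is written 5′ to 3′ on the gene's strand, and shows in capitals the start base and any letters of the motifs described with it.

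Gimap4 (chr6:48684328-48684627, plus strand): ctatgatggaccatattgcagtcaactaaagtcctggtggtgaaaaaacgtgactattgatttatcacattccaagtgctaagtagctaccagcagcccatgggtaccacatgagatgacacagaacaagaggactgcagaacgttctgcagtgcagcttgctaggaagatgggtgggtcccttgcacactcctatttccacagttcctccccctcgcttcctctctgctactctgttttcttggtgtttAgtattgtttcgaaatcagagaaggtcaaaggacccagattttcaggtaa

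Gimap3 (chr6:48770802-48771101, minus strand): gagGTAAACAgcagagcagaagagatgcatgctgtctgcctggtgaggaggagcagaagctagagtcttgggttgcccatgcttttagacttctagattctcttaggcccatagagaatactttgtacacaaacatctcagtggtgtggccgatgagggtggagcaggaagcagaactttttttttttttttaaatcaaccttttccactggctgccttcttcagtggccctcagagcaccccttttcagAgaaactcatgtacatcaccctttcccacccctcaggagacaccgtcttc

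Gimap9 (chr6:48675885-48676184, plus strand): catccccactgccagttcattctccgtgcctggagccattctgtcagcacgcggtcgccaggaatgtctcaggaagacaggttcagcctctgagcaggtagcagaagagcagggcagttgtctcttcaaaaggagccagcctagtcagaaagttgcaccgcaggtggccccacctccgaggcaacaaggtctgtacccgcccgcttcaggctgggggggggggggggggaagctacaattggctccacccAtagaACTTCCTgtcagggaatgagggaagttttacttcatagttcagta

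Gimap6 (chr6:48708195-48708494, minus strand): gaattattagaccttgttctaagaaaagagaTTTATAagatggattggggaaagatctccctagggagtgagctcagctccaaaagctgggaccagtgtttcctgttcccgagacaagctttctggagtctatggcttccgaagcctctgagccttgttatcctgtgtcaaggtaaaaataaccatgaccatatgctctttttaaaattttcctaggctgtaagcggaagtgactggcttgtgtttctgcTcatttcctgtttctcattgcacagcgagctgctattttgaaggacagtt

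Gimap7 (chr6:48718371-48718670, plus strand): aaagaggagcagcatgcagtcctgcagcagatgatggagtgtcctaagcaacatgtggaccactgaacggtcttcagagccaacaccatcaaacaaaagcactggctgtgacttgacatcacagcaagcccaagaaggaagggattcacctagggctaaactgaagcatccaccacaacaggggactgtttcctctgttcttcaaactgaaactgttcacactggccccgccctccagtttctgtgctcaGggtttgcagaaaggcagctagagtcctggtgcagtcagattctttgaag

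All 8 members matched a RefSeq promoter, with 9 windows because Gimap8 had 2 annotated starts. The forkhead-type letters TGTTTAC were present, on either strand, in 3.65% of the 32851 RefSeq mouse promoter windows of this length and in 1 Gimap window, that of Gimap3, where the match lay on the reverse strand 247 bases before the start. The ETS-type letters AGGAAGT were present in 9.35% of all windows and in 3 Gimap windows: at 5 bases after the start in Gimap9, at 1 base after it in Gimap1 and at 45 bases before it in Gimap5. The TATA-box letters TATAAA occurred in 13.6% of all windows and in that of Gimap6, on the reverse strand 219 bases before the start, and the Runx-type letters TGTGGTT occurred in 5.27% of all windows and in no Gimap window. The windows of Gimap4 and Gimap7 held none of these 4 strings. The motifs overlapped in no Gimap window, and a match describes the letters only.

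All 8 members were transcribed in all 4 samples, at levels that spanned more than an order of magnitude. Levels are given as FPKM, reads divided by gene length and by a total for each library that was in proportion to its size factor, so that levels can be compared between genes. Gimap6, whose protein is known to bind the autophagy factor Gabarapl2, was at 336 and 338 FPKM in control samples 1 and 2 and at 334 and 491 FPKM in Foxa1/2cKO samples 1 and 2. Its mean over the 4 samples, 375 FPKM, lay at the 99.1 percentile of the 10776 genes tested, and it alone gave 39.4% to 49.8% of the summed FPKM of the family. Below it came Gimap4 with a mean of 124 FPKM and Gimap9 with 118 FPKM, whose ranges over samples overlapped. Gimap8 (86.0 FPKM) and Gimap1 (79.8 FPKM) formed the next pair with overlapping ranges, followed by Gimap3 at 52.7 FPKM. Gimap7 (18.03 FPKM) and Gimap5 (16.3 FPKM) were the lowest, near the middle of all tested genes at the 55.9 and 52.7 percentiles, and their ranges overlapped as well. Among the 8 members Gimap4 ranked 2 in 3 samples and 5 in Foxa1/2cKO 2.

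**Figure D1:**
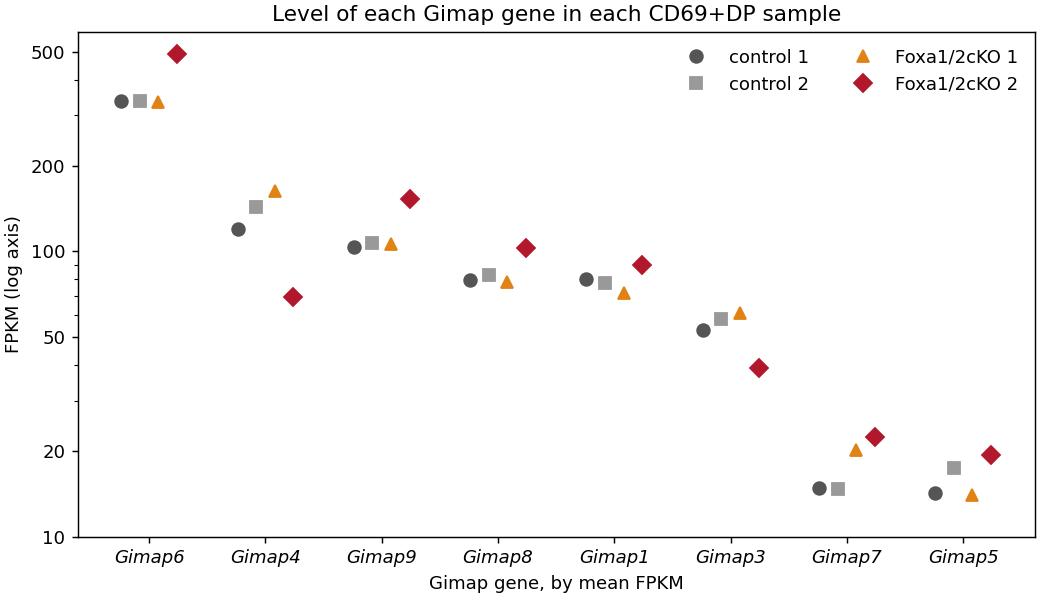
FPKM (log axis) of the 8 Gimap genes, ordered by mean level, with 1 symbol for each of the 4 samples. Gimap6 stands above all others at 334 to 491 FPKM, and the Foxa1/2cKO 2 symbol lies above the other samples for 6 genes and below them for Gimap4 and Gimap3.

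The genotypes did not differ past the threshold for any member. In the limma fit over all tested genes, 0 of the 8 members had a Benjamini-Hochberg adjusted p under 0.05, beside 1 of 10776 genes (0.00928%). The mean was higher in Foxa1/2cKO for 6 members and lower for Gimap4 and Gimap3, with a median log2 fold change of 0.10 over the members and 0.01 over all tested genes. With an unadjusted p under 0.05 there was 1 member, Gimap7, and 490 of all tested genes (4.55%, of which 2.39% rose and 2.15% fell). Non-overlapping groups were found for 1 of 8 members and for 36.7% of all tested genes. That member was again Gimap7, with both Foxa1/2cKO samples above both controls, as for 18.9% of all tested genes. No member had both Foxa1/2cKO samples below both controls, a pattern of 17.8% of all tested genes. With 2 samples in each group the smallest two-sided p of an exact permutation is 0.333, so none is given for single members.

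Gimap7 encodes a GIMAP known to pair with other family members and to stimulate their GTP hydrolysis. It was at 14.8 and 14.7 FPKM in control and at 20.2 and 22.4 FPKM in Foxa1/2cKO, from 281, 254, 277 and 315 reads. Both Foxa1/2cKO samples were above both controls, and each group was tight. The Foxa1/2cKO mean was 21.3 ± 1.53 FPKM against 14.8 ± 0.0360 FPKM in control (SD, n = 2 each), a difference of 0.50 on the log2(FPKM + 1) scale (SE 0.10, unadjusted p = 0.00417 in limma). After adjustment over all genes limma gave 0.863, so the difference did not pass the threshold. Gimap7 was also the only member for which the Foxa1/2cKO samples did not differ from each other beyond counting error, with a 95% interval of -0.09 to 0.38 for their log2 ratio.

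In the other members with a higher mean, Foxa1/2cKO 2 was the highest sample. Gimap9 was at 104 and 107 FPKM in control and at 106 and 153 FPKM in Foxa1/2cKO. Gimap8, the largest of the GIMAP proteins with several AIG1 domains, was at 79.6 and 82.9 FPKM in control and at 78.4 and 103 FPKM in Foxa1/2cKO. For Gimap6, Gimap9 and Gimap8 the samples control 1, control 2 and Foxa1/2cKO 1 lay close together and Foxa1/2cKO 2 was high. Gimap6 differed between genotypes by 0.27 on the log2(FPKM + 1) scale (SE 0.20, adjusted p = 0.863 in limma), from 337 ± 1.16 FPKM in control to 413 ± 111 FPKM in Foxa1/2cKO (SD, n = 2 each). The corresponding log2 differences were 0.27 for Gimap9 (SE 0.19) and 0.14 for Gimap8 (SE 0.15), and neither exceeded the spread within the Foxa1/2cKO group.

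Gimap1 and Gimap5, whose products are needed for the survival of peripheral T cells, differed little. Gimap1 was at 80.3 and 77.7 FPKM in control and at 71.6 and 89.5 FPKM in Foxa1/2cKO. Gimap5 was at 14.2 and 17.5 FPKM in control and at 14.0 and 19.4 FPKM in Foxa1/2cKO. In both genes the Foxa1/2cKO samples enclosed the controls, with 1 below and 1 above them. The log2 differences between genotypes were 0.02 for Gimap1 (SE 0.13) and 0.06 for Gimap5 (SE 0.19), and that of Gimap1 turned to -0.02 when the values were scaled to all recovered reads.

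Gimap4 and Gimap3 ran the other way. Gimap4, which is known to speed the death of T cells after a death stimulus and to rise as thymocytes mature, was at 120.0 and 143 FPKM in control and at 163 and 69.1 FPKM in Foxa1/2cKO. Gimap3, a close relative of Gimap5 reported to bind proteins of the Bcl2 family, was at 53.2 and 57.9 FPKM in control and at 60.7 and 38.9 FPKM in Foxa1/2cKO. In both genes Foxa1/2cKO 1 was the highest of the 4 samples and Foxa1/2cKO 2 the lowest. Gimap4 averaged 116 ± 66.2 FPKM in Foxa1/2cKO against 131 ± 16.0 FPKM in control (SD, n = 2 each), a log2 difference of -0.30 (SE 0.41, adjusted p = 0.897 in limma). Gimap3 averaged 49.8 ± 15.4 FPKM against 55.5 ± 3.30 FPKM, a log2 difference of -0.19 (SE 0.22, adjusted p = 0.884 in limma).

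**Figure D2:**
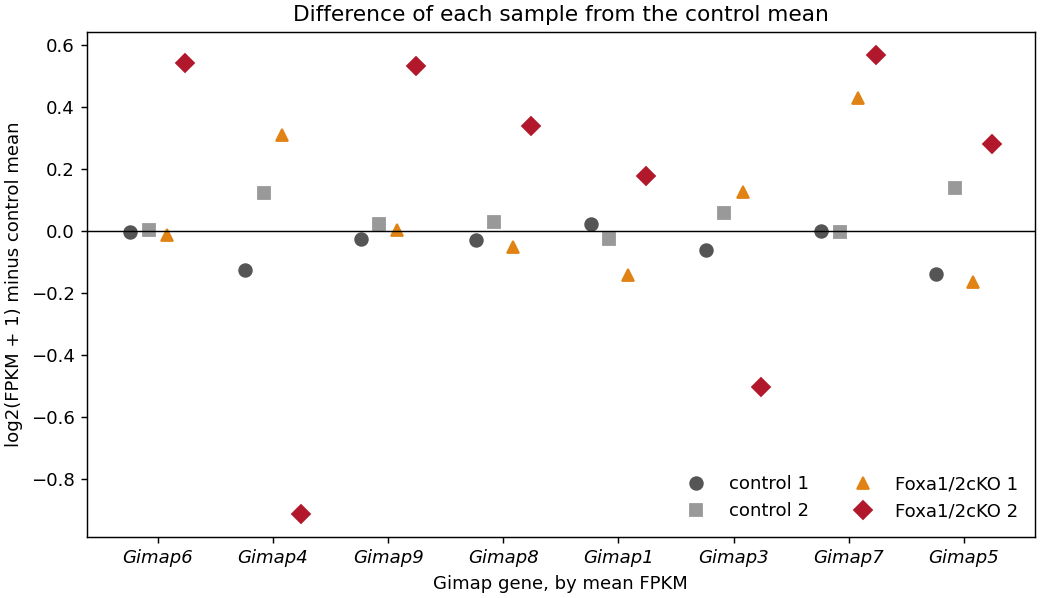
Difference of each sample from the mean of the 2 control samples, on the log2(FPKM + 1) scale, for each Gimap gene ordered by mean level. Foxa1/2cKO 1 stays near the controls for Gimap6, Gimap9 and Gimap8, Foxa1/2cKO 2 is 0.91 below the control mean for Gimap4 and 0.50 below it for Gimap3, and for Gimap7 both Foxa1/2cKO samples lie above.

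For each member other than Gimap7, the log2 gap between the Foxa1/2cKO samples was larger than the difference between genotypes. The SD of FPKM was larger in Foxa1/2cKO than in control for all 8 members. The median absolute log2 difference between the Foxa1/2cKO samples was 0.49 over the members and 0.20 over all tested genes, whereas between the controls it was 0.05 over the members and 0.08 over all tested genes. Counting error did not cover it, since the 95% interval of the log2 ratio of the Foxa1/2cKO samples excluded 0 for 7 of 8 members. The corresponding interval for the controls excluded 0 for 3 members (Gimap4, Gimap3 and Gimap5).

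Gimap4 had the widest gap of the family. From 3179 reads in Foxa1/2cKO 1 and 1388 reads in Foxa1/2cKO 2, its level in the latter was 0.425 times that in the former, a log2 ratio of -1.23 (95% counting interval -1.33 to -1.14). Among all tested genes 2.13% had a larger absolute difference between these samples. For Gimap3 the log2 ratio was -0.64 (95% counting interval -0.76 to -0.52). The controls differed less for Gimap4, by 0.25 (95% counting interval 0.18 to 0.32). The share of Gimap4 in the summed FPKM of the family was 15.0% and 17.0% in the control samples and dropped from 19.2% to 7.004% between Foxa1/2cKO 1 and Foxa1/2cKO 2.

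Members of the cluster thus moved in opposite directions within the same sample. Relative to Foxa1/2cKO 1, Foxa1/2cKO 2 was higher for 6 members and lower for 2, against 53.7% of all tested genes that were higher. It was the highest of the 4 samples for those 6 members and the lowest for Gimap4 and Gimap3, as for 40.5% and 33.3% of all tested genes. The summed FPKM of Gimap3 and Gimap4 was 173, 201, 223 and 108 in control 1, control 2, Foxa1/2cKO 1 and Foxa1/2cKO 2, while the other 6 members summed to 629, 638, 624 and 879 FPKM. The ratio of Gimap4 to its upstream neighbour Gimap9, whose gene ends 5461 bases before Gimap4 begins, was 1.16, 1.33, 1.54 and 0.451 in the same order. The ratio of Gimap3 to Gimap5 was 3.74, 3.31, 4.35 and 2.01. Both ratios were lowest in Foxa1/2cKO 2 and highest in Foxa1/2cKO 1, and Gimap4 and Gimap3 are not neighbours, with 4 members between them.

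**Figure D3:**
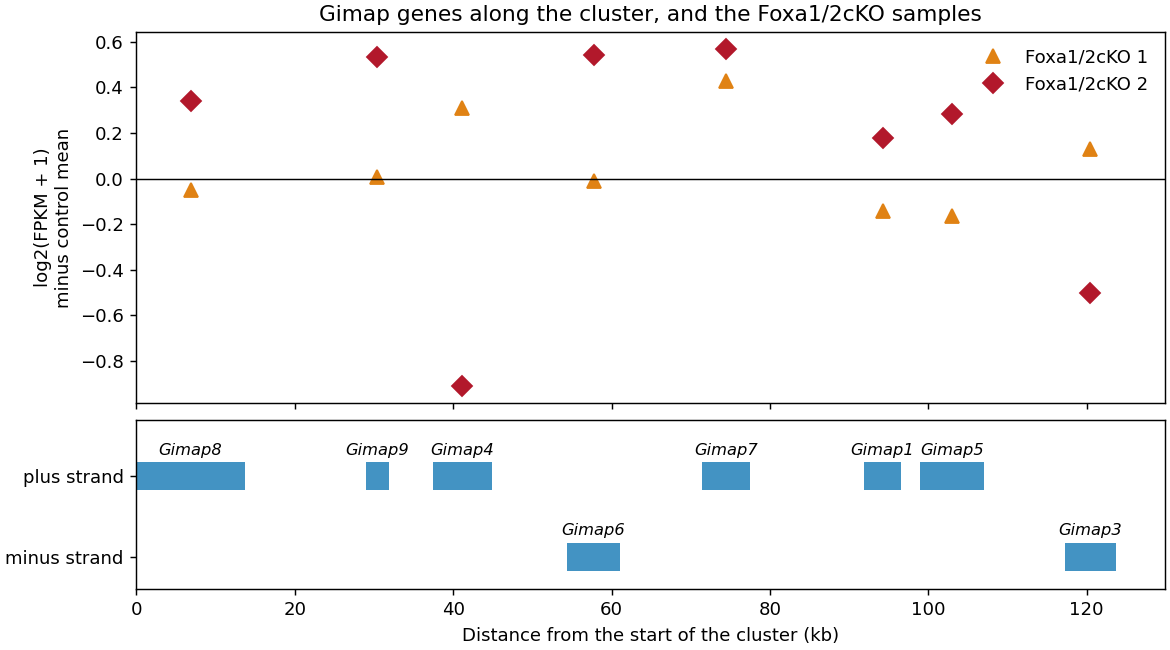
Upper panel, log2(FPKM + 1) of each Foxa1/2cKO sample minus the control mean for each Gimap gene, at the gene's place in the cluster. The lower panel maps the 8 genes by strand, with distance from the start of the cluster in kb on the horizontal axis. Gimap4 is 0.91 below the control mean in Foxa1/2cKO 2 although its neighbours Gimap9 and Gimap6 are 0.53 and 0.54 above it.

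The libraries also differed beyond this family. The reads recovered on listed genes numbered 14479737 and 13068648 in control and 10394491 and 11260945 in Foxa1/2cKO. Foxa1/2cKO 2 stood apart over all tested genes, at 28.5 on a first principal component holding 65.2% of the variance, with the other 3 samples between -11.0 and -7.42. All 10 markers of CD69+DP thymocytes were present in every sample, with Cd4 at 342 to 446 FPKM and Cd69 at 103 to 121 FPKM. Of these 10 markers 9 were higher in Foxa1/2cKO 2 than in Foxa1/2cKO 1 (median log2 difference 0.41), as were 6 Gimap members, and Cd8b1 was at 668 and 974 FPKM in these samples. Without Foxa1/2cKO 2 the log2 difference from the control mean was -0.01 for Gimap6, 0.00 for Gimap9, 0.31 for Gimap4, 0.13 for Gimap3 and 0.43 for Gimap7, with no member past the threshold. Without Foxa1/2cKO 1 the differences were 0.54, 0.53, -0.91, -0.50 and 0.57, and these 5 members and Gimap8 had an adjusted p under 0.05, as did 2559 of 10776 genes (23.7%) in that fit, which takes the lone Foxa1/2cKO sample to vary like the controls.

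Genes of neighbouring maturation stages also differed between the Foxa1/2cKO samples. Of 18 genes that mark mature single-positive cells, 3 were higher and 15 lower in Foxa1/2cKO 2 than in Foxa1/2cKO 1, with a median log2 difference of -0.63, beside 0.03 over all tested genes. Klf2, which drives the program for leaving the thymus, was at 37.0 and 43.0 FPKM in control and at 43.4 and 17.0 FPKM in Foxa1/2cKO. Its target S1pr1, the receptor used for exit, was at 12.3, 13.9, 13.4 and 6.40 FPKM (control 1, control 2, Foxa1/2cKO 1 and Foxa1/2cKO 2, the order used from here on), and Il7r, the IL-7 receptor chain, was at 33.7, 44.1, 41.5 and 13.4 FPKM. These genes were lowest in Foxa1/2cKO 2, as were Gimap4 and Gimap3. The list was not uniform: Slfn2 was at 112, 107, 127 and 133 FPKM, higher in both Foxa1/2cKO samples as was Gimap7. Between genotypes 5 of the 18 genes had a higher and 13 a lower mean, and 0 passed the adjusted threshold (2 at an unadjusted p under 0.05 in limma, both higher, among them Slfn2). Over all tested genes 4.55% had an unadjusted p under 0.05 in limma, 2.39% with a higher mean.

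Of 16 genes of the TCR response, 12 were higher in Foxa1/2cKO 2 than in Foxa1/2cKO 1, with a median log2 difference of 0.42. Cd28, the costimulatory receptor, was at 169.7 and 157 FPKM in control and at 164 and 247 FPKM in Foxa1/2cKO, the pattern of Gimap6 and Gimap9. Zbtb7b, which encodes the CD4-lineage factor ThPOK, was at 43.1, 53.4, 47.1 and 10.9 FPKM, lowest in Foxa1/2cKO 2 as was Gimap4. Of 12 genes of preselection double-positive cells, 7 were higher in Foxa1/2cKO 2, and the median difference was 0.05. Between genotypes 8 of the 12 had a higher mean, 5 of them with both Foxa1/2cKO samples above both controls, and 4 a lower mean, 1 of them with both below. Of all tested genes 18.9% had both above and 17.8% both below. Themis, a TCR signalling protein needed for positive selection, was at 77.7, 76.6, 89.4 and 127 FPKM. In that comparison 0 genes of either list passed the adjusted threshold, and at an unadjusted p under 0.05 in limma there was 1, Ptcra, at 11.2, 11.9, 7.44 and 3.23 FPKM. Over all tested genes 4.55% had such an unadjusted p, 2.15% with a lower mean. Fewer cells of a stage and less RNA per cell cannot be told apart in these bulk samples, and the part of maturation stage in the Gimap values was not tested.

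**Figure D4:**
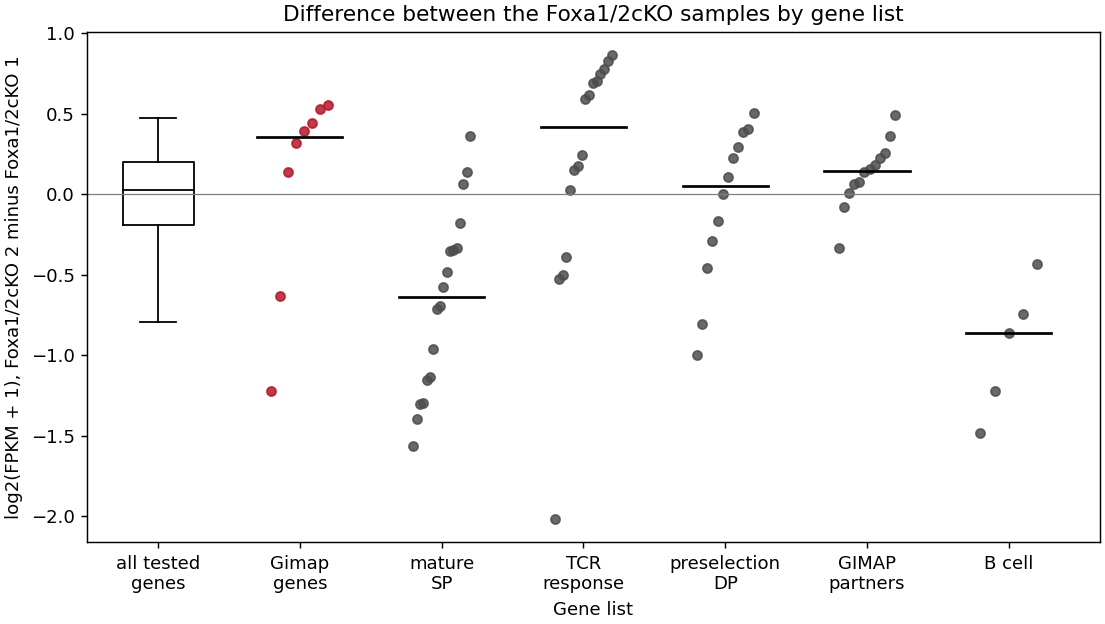
Log2(FPKM + 1) in Foxa1/2cKO 2 minus Foxa1/2cKO 1 for each tested gene of 6 lists, with a bar at each list's median; the box gives the quartiles of all tested genes and its whiskers the 5 and 95 percentiles. The Gimap points split into 6 above 0 and 2 below, the mature single-positive list has a median of -0.63 and the TCR response list one of 0.42.

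Markers of other cell types were detected and varied between samples. The 6 B cell markers were all above 0 and summed to 76.2, 50.6, 104 and 54.4 FPKM. They were highest in Foxa1/2cKO 1, as were Gimap4 and Gimap3, but Foxa1/2cKO 2 lay within the control range. The 9 myeloid and dendritic markers summed to 131, 96.6, 132 and 148 FPKM, with none at 0. Most of that sum was Cst3, a broadly made protease inhibitor, at 82.6, 70.1, 82.5 and 116 FPKM, and it was the only 1 of 8 tested markers that was higher in Foxa1/2cKO 2 than in Foxa1/2cKO 1 (median log2 difference -0.55). The 6 listed markers of NK, NKT and gamma delta cells summed to 29.2, 30.8, 31.7 and 16.8 FPKM, with none at 0. Most of that sum was Nkg7 (20.8, 20.2, 23.7 and 12.0 FPKM) and Sox13 (6.21, 8.87, 4.96 and 2.91 FPKM). The NK cell markers Klrb1c (0.965, 0.644, 1.34 and 1.06 FPKM) and Ncr1 (0.0913, 0.101, 0.127 and 0.185 FPKM) were low and higher in both Foxa1/2cKO samples. Of 7 endothelial markers Tie1 was at 0 and the summed 50.5 to 62.5 FPKM came almost wholly from Pecam1, 4 of 6 erythroid markers were at 0 with a sum of 0.608 to 2.67 FPKM, and the 6 thymic epithelial markers summed to 4.89 to 7.61 FPKM. The part of these cells in the Gimap values was not tested.

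Genes for proteins that GIMAPs act with differed little between genotypes. Of 12 such genes (Bcl2 family members, autophagy factors of the Gabarap and LC3 groups, and GSK3 kinases), 7 had a higher and 5 a lower mean in Foxa1/2cKO. Of these 0 passed the adjusted threshold and 0 had an unadjusted p under 0.05 in limma, beside 4.55% of all tested genes. Bcl2, the survival factor, was at 26.8 and 30.4 FPKM in control and at 27.2 and 21.3 FPKM in Foxa1/2cKO. Bax, its death-promoting relative, was at 48.5, 49.8, 43.0 and 47.9 FPKM. Gabarapl2, the partner of Gimap6, was at 34.1, 35.8, 34.8 and 39.6 FPKM, highest in Foxa1/2cKO 2 like Gimap6 but by a smaller margin.

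None of the genes next to the cluster that were tested passed the adjusted threshold in limma. Before Gimap8 lie Gm5111, at 0.0961 to 0.281 FPKM, Repin1, at 3.18 to 4.23 FPKM, and Zfp775, at 2.83 to 3.49 FPKM, each with overlapping groups. Gm38804, Gm44262, Gm46958, Gm30714, Gm30781 and Gm17834 were not among the listed genes under these symbols and have no values here. Tmem176b and Tmem176a, which follow Gimap3, were at 7.01 to 9.72 FPKM and 6.78 to 8.06 FPKM, with overlapping groups. AI854703, the nearest of those before Gimap8, was at 1.12 and 1.15 FPKM in control and at 0.804 and 0.378 FPKM in Foxa1/2cKO. Both Foxa1/2cKO samples lay below both controls (unadjusted p = 0.112 in limma), as for 17.8% of all tested genes. The gene was near the filter of 1 FPKM, with 60 and 56 reads in control and 31 and 15 in Foxa1/2cKO.

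The summed FPKM of the family was 802 and 839 in control and 848 and 987 in Foxa1/2cKO, and followed the 6 members that were high in Foxa1/2cKO 2. Taking each gene's log2(FPKM + 1) deviations from its own mean over the 4 samples, Gimap8 lay nearest to the sum (root mean square difference 0.0611), and Gimap4 farthest (0.562, with 96.6% of tested genes nearer). Among genes outside the family Pex13, a peroxisomal import factor, came nearest at 0.00242, followed by AU040320 at 0.00738, Itpripl1 at 0.00881 and Mvb12b at 0.00907. With 4 samples such likeness is a description only.

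Reads of some members could be shared with similar or overlapping genes. Of the 50-base stretches in the longest coding transcript of Gimap3, 9.06% were also present in Gimap5, and of those of Gimap5 9.98% were present in Gimap3, so the values of this pair are less certain. Gimap5, Gimap1 and Gimap7 also share sequence with Gm28053, a transcript annotated in GENCODE across these genes, and Gimap1 overlaps the antisense gene Gimap1os. Gimap3 shared stretches with Gm28053 as well, and 9.83% of its stretches were present in at least 1 other gene. Strand use in the gene counting was not stated in the sources used here, and exons were counted without strand, so the value of Gimap1 may hold reads of Gimap1os. Gimap4, Gimap8 and Gimap9 shared no such stretch with any gene.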

How the data were processed

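RNA of CD69+DP thymocytes was sequenced on an Illumina NextSeq instrument. The authors aligned reads to mouse mm10 with RefSeq genes (the submitters' notes name TopHat, Picard and DESeq2) and counted them with HTSeq, and the deposited values are FPKM per gene for 4 samples, with library totals in proportion to size factors (14968316, 13576813, 10796528 and 11093927). No count table was used here. The FPKM steps gave whole reads for 16066 of 16069 genes above 0 (tolerance 0.002), from which counting intervals (95%, counting error only) and gene lengths were taken. The smallest whole reads were used, so the reads and length of a gene may be too low by a common divisor. The sums of recovered reads carry the same limit.

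Genes with at least 1 FPKM in at least 2 samples (10776) were tested on log2(FPKM + 1), which understates changes of low genes, with limma 3.58.1 in R 4.3.3 (moderated variance with trend, 2 residual degrees of freedom, two-sided, Benjamini-Hochberg threshold 0.05). The alternatives were another pseudocount (0.1), no filter, upper-quartile scaling, the replicate block, a length correction, no trend, limma-voom on recovered reads, leaving out each sample, and dividing by all recovered reads in place of the totals that the deposited values carry. The script was tested on simulated reads with the same spread in both groups. In these data the Foxa1/2cKO samples differed more than the controls (SD of the log2 difference 0.405 against 0.198), a setting the simulation did not cover. The paper states that samples were sorted independently, each sort with 2 mice per genotype. The p-values measure the spread between these samples.

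Named genes were all 8 members, the 5 flanking genes on each side, the 5 genes nearest to the family sum (1 of which has a symbol turned into a date and is not named), and, of each fixed list, its defining markers and the 2 lowest p in each direction (1 gene so chosen is not reported here). Members and lists were chosen with earlier results of these data known. The correlation of the deviations of same-numbered samples was -0.0587, but with Foxa1/2cKO 2 standing apart this value cannot decide whether samples were paired. The sources do not state whether same-numbered samples shared a sort, so the numbers were not taken to pair samples.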

Additional observations from a re-analysis of the deposited data

How the results depend on the processing

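The number of Gimap members past the threshold was 0 under 12 of 13 alternatives, and 6 without Foxa1/2cKO 1 (range 0 to 6 on leaving out each sample). Over all genes the count of 1 became 0 with a pseudocount of 0.1 (unadjusted p under 0.05 in limma: 477 of 10776 genes). The same held without the filter (802 of 16069), with limma-voom on recovered reads (519 of 10776) and with scaling to all recovered reads (538 of 10776). The last alternative was chosen after seeing the data. Leaving out each sample gave 0 to 2559. The median log2 fold change of the members ranged from 0.07 to 0.12 over the other alternatives and from -0.00314 to 0.31 on leaving out each sample.

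With the replicate number as a block, 0 members and 1 gene passed (378 genes at an unadjusted p under 0.05, against 490), and the members' median stayed at 0.10. The block, with or without a length correction, changed no member's call. Whether samples with the same number shared a sort was not stated.

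Single members turned direction on leaving out a sample. Over the 4 fits that each leave out 1 sample, Gimap1 ranged from -0.141 to 0.177, Gimap3 from -0.501 to 0.128, Gimap4 from -0.911 to 0.312, Gimap5 from -0.165 to 0.281, Gimap6 from -0.011 to 0.542 and Gimap8 from -0.0511 to 0.339. For these 6 members the lower end (for Gimap3 and Gimap4 the upper end) came without Foxa1/2cKO 2 and the other end without Foxa1/2cKO 1. Gimap5 was also at -0.081 without control 1, and Gimap1 at -0.0056 without control 2. Gimap1 was at -0.0163 with scaling to all recovered reads. Gimap7 stayed between 0.43 and 0.57 over all 13 alternatives, with adjusted p from 0.00525 to 0.99995 in limma, and Gimap9 stayed above 0. The cause of these changes was not tested. With 2 samples a group precision was low: the median SE of a log2 fold change was 0.19 over the members and 0.13 over all tested genes.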
